A study of Mus musculus with 6 samples.

Results

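Nuclear receptors are transcription factors that bind DNA through a zinc-finger domain and, in most cases, change their activity when a small lipophilic ligand binds them. In liver they sense bile acids, oxysterols, fatty acids, foreign chemicals, thyroid hormone, retinoids and steroids, and they adjust lipid, bile acid, glucose and drug metabolism. Many of them act as pairs with a retinoid X receptor (RXR), whereas HNF4 receptors pair with themselves and several others bind as single molecules. The members described are 33 genes of this family, chosen by symbol from a fixed list and all found among the 23291 genes of the tables. Of these 33 genes, 26 passed the filter on low values (at least 1 FPKM in at least 3 libraries) and were tested among 10247 genes. Levels are in FPKM, fragments counted on a gene divided by its length in kilobases and by the mapped fragments of the library.

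The study measured RNA from whole liver of C57BL/6 mice by sequencing and addressed what a thrombin inhibitor does to hepatic gene expression during a high fat diet. The dabigatran group was fed a high fat (Western) diet for 3 months with dabigatran etexilate added at 10 mg per gram, an oral prodrug of the direct thrombin inhibitor dabigatran. The diet group was fed that diet for the same 3 months without the drug. Both groups were therefore on the high fat diet, and no group on another diet was analysed here. Because all 23291 values of dabigatran replicate 0 equal those of replicate 1, these tables entered once, as dabigatran replicate 1, which leaves 2 dabigatran libraries and 3 diet libraries. The number 1 is the one written inside both tables, and which of the 2 samples they belong to is not known. Depth relative to diet replicate 0 was 0.857 and 0.772 in dabigatran replicates 1 and 2, and 0.761 and 0.967 in diet replicates 1 and 2. Hepatocyte markers dominated in every library, with a summed level of 10 markers of 44387 and 62502 FPKM in dabigatran replicates 1 and 2, against 44723, 44814 and 49268 FPKM in diet replicates 0, 1 and 2. Of these 10 markers, 6 were higher and 2 lower without overlap, beside 17.2% in each direction over all tested genes. The summed level of 10 sinusoidal endothelial markers was 128 and 128 FPKM in the dabigatran libraries and 124 to 127 FPKM in the diet libraries. However, 7 of the 10 were higher without overlap and 1, the abundant Clec4g, was lower, beside the same 17.2% in each direction. Lyve1 had 18.6 and 23.2 FPKM with dabigatran and 10.4, 9.07 and 7.31 FPKM on the diet alone, and Clec4g had 37.2 and 25.4 FPKM with dabigatran and 50.4, 53.6 and 53.3 FPKM on the diet alone. No marker of these 2 lists passed the test. The levels of 10 Kupffer cell and macrophage markers summed to 403 and 289 FPKM with dabigatran and to 294 to 394 FPKM on the diet alone. Stellate cell and fibroblast markers summed to 143 and 171 FPKM with dabigatran and to 142 to 195 FPKM on the diet alone. Of the 9 tested, 1 was higher and 2 lower without overlap, beside the same 17.2% in each direction, and 0 passed. Col3a1, 1 of the 2 lower, had 1.29 and 0.953 FPKM with dabigatran and 6.26, 3.48 and 6.32 FPKM on the diet alone. Lymphocyte markers stayed at or below 4.82 FPKM in sum, and cholangiocyte markers, nearly all of them the secreted protein gene Spp1, were at 39.0 and 11.1 FPKM with dabigatran and 32.8 to 52.0 FPKM on the diet alone. Neutrophil markers summed to 46.1 and 2.90 FPKM in dabigatran replicates 1 and 2 and to 5.14, 2.68 and 22.9 FPKM in diet replicates 0, 1 and 2. Adipocyte markers summed to 23.1 and 23.3 FPKM with dabigatran and to 194, 48.8 and 92.6 FPKM in diet replicates 0, 1 and 2, from Cidec and Cfd, while Plin1 and Lep were listed at 0 in every library. In bulk tissue, fewer cells of a type and less RNA per cell cannot be told apart.

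The DNA-binding domain is the feature that all members share. A stretch inside its first zinc finger, called the P box, contacts the recognised hexamer in DNA. It was found in the coding sequence of all 33 members by the pattern of cysteines around it, and the 5 residues encoded there fell into 7 groups. The largest group held 22 members, among them the 3 RXR genes, the thyroid hormone, retinoic acid, vitamin D, oxysterol, bile acid and xenobiotic receptors and the NR4A genes, and spelled the same residues with 14 different 15-base sequences. Receptors of this group, and most others of the family, recognise variants of the hexamer AGGTCA, whereas the glucocorticoid and mineralocorticoid receptors (Nr3c1 and Nr3c2) recognise AGAACA. The sequences below show how the P box varies among receptors described later, with 2 of the largest group (Rxra and Nr1h4) and 1 of each of the other groups. Each is 36 bases of a mouse GENCODE M21 transcript, 5′ to 3′ on the coding strand, with the 5 codons of the P box in capitals.
Rxra: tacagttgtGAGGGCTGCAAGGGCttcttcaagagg
Nr1h4: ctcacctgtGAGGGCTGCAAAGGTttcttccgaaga
Hnf4a: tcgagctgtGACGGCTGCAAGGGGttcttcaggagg
Esrra: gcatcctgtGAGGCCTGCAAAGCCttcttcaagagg
Nr2f2: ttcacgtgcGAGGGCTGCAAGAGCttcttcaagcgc
Nr5a2: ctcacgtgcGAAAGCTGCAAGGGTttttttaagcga
Esr1: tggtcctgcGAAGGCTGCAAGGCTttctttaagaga
Nr3c2: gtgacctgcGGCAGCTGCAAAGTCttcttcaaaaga
The HNF4 pair (Hnf4a and Hnf4g), the ERR pair (Esrra and Esrrg), the steroid pair (Nr3c1 and Nr3c2) and the 3 COUP-TF genes (Nr2f1, Nr2f2 and Nr2f6) each formed a group of their own, and Nr5a2 and Esr1 each stood alone.

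Ranked by mean level in the diet libraries, the 33 members were led by 5 receptors that set hepatocyte identity or sense metabolites. This ranking leaves out family genes outside the list, such as Ppara, with a diet mean of 48.6 FPKM. Hnf4a, which maintains the hepatocyte programme, stood first at 111 ± 12.9 FPKM (SD, n = 3) in the diet group and ranked 579 among all 23291 genes. It was followed by Nr1i3 (the constitutive androstane receptor CAR, a sensor of foreign chemicals) at 63.3 ± 5.09 FPKM, Rxra at 56.6 ± 0.703 FPKM, the bile acid receptor gene Nr1h4 (FXR) at 42.1 ± 4.85 FPKM and the oxysterol receptor gene Nr1h3 (LXR alpha) at 39.8 ± 4.43 FPKM. These 5 genes held 68.1% and 78.0% of the summed FPKM of all members in dabigatran replicates 1 and 2, and 69.4%, 67.1% and 69.1% in diet replicates 0, 1 and 2. The diet values of Nr1h4 and Nr1h3 overlapped, and the lowest of Nr1i3 (57.5 FPKM) lay next to the highest of Rxra (57.4 FPKM). The same 5 genes held the first 5 places in the dabigatran group, where Rxra stood above Nr1i3, and the same 10 genes held the first 10 places. Spearman's rho between the group means of the 33 members was 0.984, as a description over genes that share their libraries.

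A middle tier of 10 members lay between 5 and 22 FPKM in the diet group. It held Nr1i2 (the pregnane X receptor PXR) at 21.7 ± 1.99 FPKM, the glucocorticoid receptor gene Nr3c1 at 14.9 ± 2.86, Nr2f6 at 14.1 ± 3.32, Nr5a2 (LRH-1, which drives bile acid synthesis genes) at 13.7 ± 2.07 and Nr1h2 (LXR beta) at 10.8 ± 0.455 FPKM (SD, n = 3 each). The levels of Nr3c1, Nr2f6 and Nr5a2 overlapped across the diet libraries. Rxrb, Nr2f2, Rora, Thrb and Esrra followed at 7.82 to 5.18 FPKM. Below them were 12 members with means of 1 to 5 FPKM, and 6 members had means under 1 FPKM.

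The low tier rested on few fragments. Whole fragments could be read from the steps of the FPKM values for 21 members, and 6 of these had a median under 10 fragments per diet library. Rxrg, the RXR of muscle and brain, had 5 and 7 fragments in dabigatran replicates 1 and 2 and 7, 7 and 9 in the diet libraries. Ppard, a fatty acid receptor found in many tissues, had 0.764 and 2.21 FPKM in dabigatran replicates 1 and 2, and 0.786, 0.516 and 2.03 FPKM in diet replicates 0, 1 and 2. Replicate 2 was the high library of both groups, so the groups overlapped and no direction was seen. Esrrg had 0.452 and 0.703 FPKM with dabigatran and 1.01, 0.509 and 1.28 FPKM on the diet alone. The stress-induced orphan receptor gene Nr4a2 had 0.163 FPKM in dabigatran replicate 1 and was listed at 0 in replicate 2, against 0.280, 0.919 and 0.579 FPKM in the diet libraries. Its groups did not overlap, at levels under the filter. Nr2f1 had at most 2 fragments in any library. Nr4a3 had 1 fragment in dabigatran replicate 2 and 1 in diet replicate 0, and Hnf4g had 1 fragment in dabigatran replicate 1. The vitamin D receptor gene Vdr was listed at 0 in every library.

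**Figure D1:**
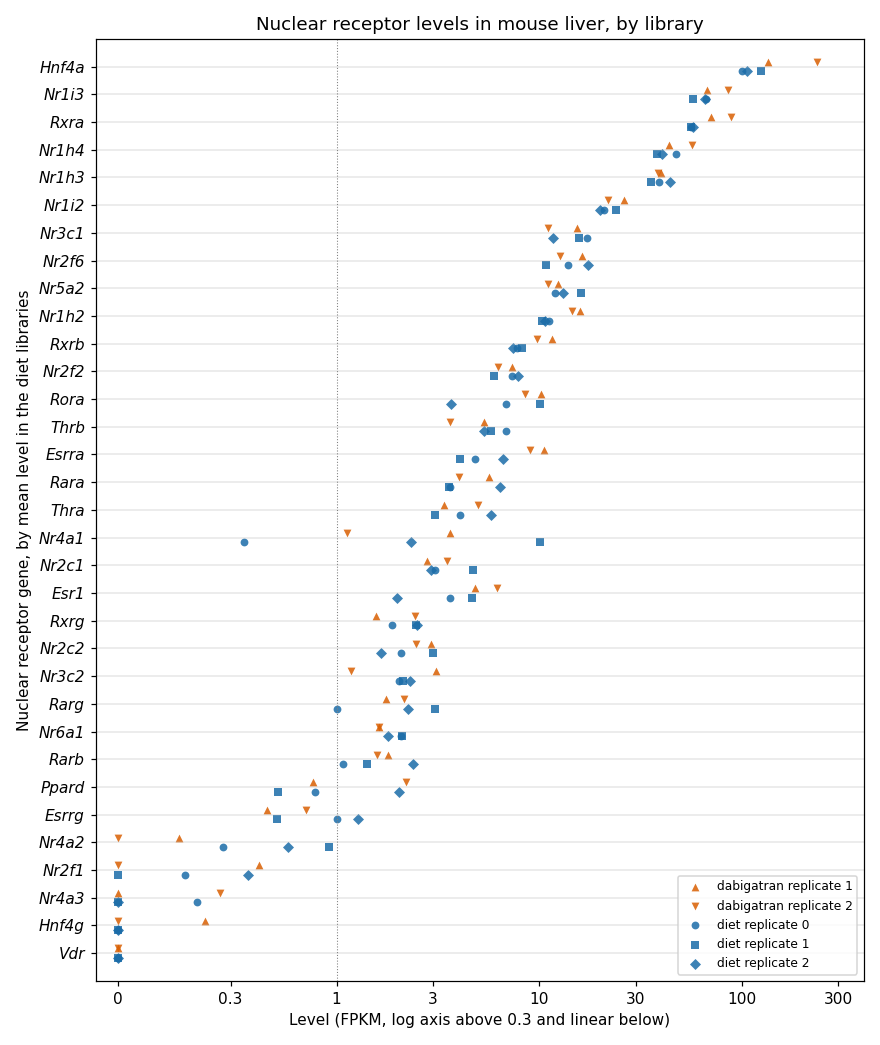
Level of each of the 33 nuclear receptor genes (FPKM, log axis above 0.3 and linear below) in the 2 dabigatran libraries (orange triangles) and the 3 diet libraries (blue), ordered by the diet mean. Hnf4a reaches 236 FPKM in dabigatran replicate 2, Nr4a1 spreads from 0.348 to 10.1 FPKM among the diet libraries, and Vdr lies at 0. The dotted line marks 1 FPKM.

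Members differed widely in how closely the diet libraries lay together. The highest diet value exceeded the lowest by a median of 1.33-fold over the 26 tested members, with 15 of them under 1.5-fold and 5 over 2-fold. Rxra had the narrowest range, 1.02-fold. Nr4a1, an immediate early receptor gene, had the widest. Its level was 3.65 FPKM in dabigatran replicate 1 and 1.13 FPKM in dabigatran replicate 2, against 0.348, 10.1 and 2.34 FPKM on the diet alone. Diet replicate 1 was far above the other libraries for this gene, at 44 fragments against 2 and 13 in diet replicates 0 and 2. Rarg, Rora, Esr1 and Rarb were the other members with a diet range over 2-fold.

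None of the 26 tested members passed the test between the dabigatran and the diet group (limma on log2(FPKM + 0.5), Benjamini-Hochberg adjusted p under 0.05), with 0 higher and 0 lower. Over all 10247 tested genes 0.429% passed, 0.127% higher and 0.303% lower, and 0 among 26 lies near that background. A gene at 1 FPKM or more only in the 3 diet libraries could be tested. A gene so only in the 2 dabigatran libraries could not, so the filter leans toward lower genes, by an amount that was not tested. The lowest adjusted p of a member was 0.160. At an unadjusted p under 0.05 the count was 4 higher (Esrra, Hnf4a, Rxra and Nr1h2) and 0 lower, beside 6.87% higher and 9.13% lower over all tested genes. With voom on whole fragments, possible for 16 tested members and not for Hnf4a, 0 passed, and Esrra, Rxra, Nr1h2 and Esr1 were higher at an unadjusted p under 0.05, beside 7.88% of all 8099 genes in that fit. With limma on those genes it was 3 members, beside 6.49%. The median log2 difference of the tested members was 0.07, beside 0.02 over all tested genes, and 14 of them had a positive and 12 a negative difference. The 2 groups did not overlap for 7 higher and 2 lower members, where 34.4% of all tested genes did not overlap, 17.2% higher and 17.2% lower. A p above the threshold does not show equal levels, and the 95% intervals below give the sizes that these libraries leave possible.

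Esrra (chromosome 19, 6910977 to 6921813, GRCm38) encodes ERR alpha, an orphan receptor that partners with PGC-1 coactivators on genes of mitochondrial energy metabolism. Its level was 10.6 and 9.04 FPKM in dabigatran replicates 1 and 2, against 4.85, 4.08 and 6.62 FPKM in diet replicates 0, 1 and 2. Both dabigatran libraries were above every diet library, on 47 and 36 fragments against 25, 16 and 33. The log2 difference was 0.88 ± 0.25 (SE, 95% interval 0.30 to 1.47, adjusted p = 0.160), the largest among the tested members. Leaving out 1 library at a time gave 0.74 to 1.06.

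Hnf4a (chromosome 2, 163506808 to 163572910) had 134 and 236 FPKM in dabigatran replicates 1 and 2, against 100.3, 125 and 107 FPKM in diet replicates 0, 1 and 2. Dabigatran replicate 2 stood far above the rest, and dabigatran replicate 1 lay just above diet replicate 1. The log2 difference was 0.69 ± 0.25 (SE, 95% interval 0.11 to 1.27, adjusted p = 0.243). It was 0.28 without dabigatran replicate 2 and 1.10 without dabigatran replicate 1, where the adjusted p was 0.0525. It passed (adjusted p = 0.0466) in 1 alternative, a replicate block that gives the table shared by dabigatran replicates 0 and 1 the number 0, in which 251 genes passed higher and 414 lower. Dabigatran replicate 2 was also the library with the highest summed hepatocyte markers, 62502 FPKM against 44387 to 49268 FPKM in the others, and the part of this in the result was not tested.

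The RXR genes encode the shared partner of the metabolite, thyroid hormone and retinoid receptors. Rxra (chromosome 2, 27676440 to 27762957) had 70.5 and 88.5 FPKM in dabigatran replicates 1 and 2, against 56.3, 56.1 and 57.4 FPKM in diet replicates 0, 1 and 2. The diet libraries were within 1.3 FPKM of one another and both dabigatran libraries were higher. The log2 difference was 0.48 ± 0.17 (SE, 95% interval 0.08 to 0.88, adjusted p = 0.240), and 0.31 without dabigatran replicate 2. Rxrb had 11.6 and 9.78 FPKM with dabigatran and 7.79, 8.25 and 7.43 FPKM on the diet alone. Its groups did not overlap either, and the log2 difference was 0.43 (95% interval -0.04 to 0.89, adjusted p = 0.348). Rxrg had 1.57 and 2.44 FPKM with dabigatran and 1.88 to 2.503 FPKM on the diet alone, with overlapping groups. Summed over the 3 genes, RXR stood at 83.7 and 100.7 FPKM with dabigatran, against 65.9, 66.8 and 67.3 FPKM on the diet alone, and Rxra made up 84.0% to 87.9% of it in every library.

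Of the lipid and bile acid sensors, Nr1h2 was the one with groups that did not overlap. Nr1h2 (chromosome 7, 44549616 to 44553951), the LXR subtype found in most tissues, had 16.0 and 14.6 FPKM in dabigatran replicates 1 and 2, against 11.2, 10.3 and 10.7 FPKM in diet replicates 0, 1 and 2. Each dabigatran library was higher, with a log2 difference of 0.49 ± 0.19 (SE, 95% interval 0.06 to 0.91, adjusted p = 0.259) on 61 and 50 fragments against 50, 35 and 46. Nr1h3, the LXR subtype enriched in liver, had 40.1 and 38.6 FPKM with dabigatran and 39.1, 35.8 and 44.6 FPKM on the diet alone. The dabigatran values lay inside the diet range, with a log2 difference of -0.01 (95% interval -0.42 to 0.39). Nr1h2 made up 28.5% and 27.4% of the summed LXR level with dabigatran, against 22.3%, 22.4% and 19.4% on the diet alone. Nr1h4 had 43.6 and 56.9 FPKM with dabigatran and 47.5, 38.1 and 40.6 FPKM on the diet alone, and the groups overlapped (log2 difference 0.25, 95% interval -0.20 to 0.70). It was 0.0586 without dabigatran replicate 2 and 0.44 without dabigatran replicate 1.

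**Figure D2:**
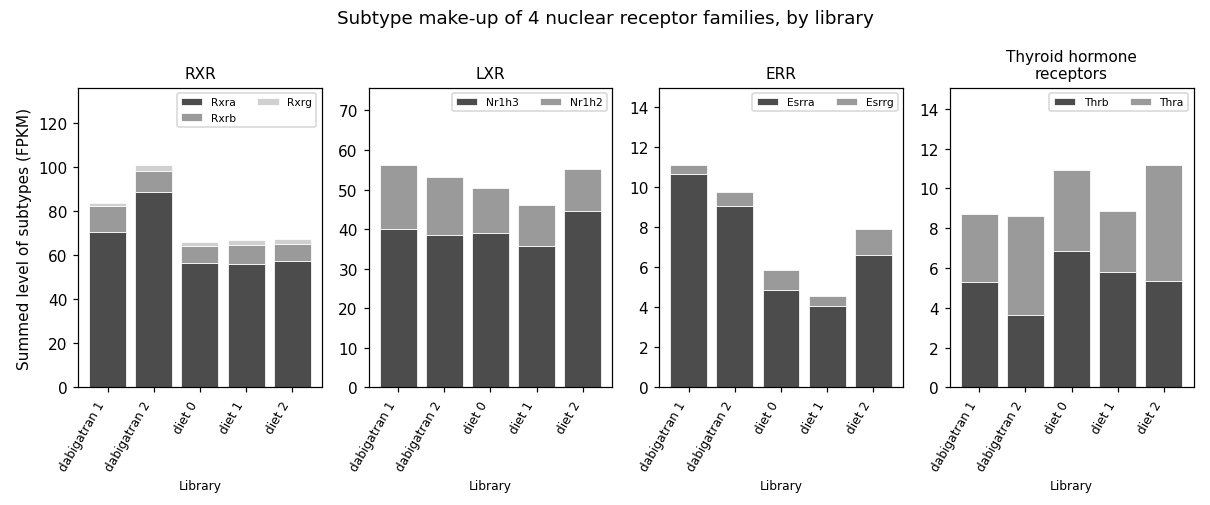
Summed level (FPKM, bars from 0) of the subtypes of 4 receptor families in each library, with the 2 dabigatran libraries left of the 3 diet libraries and each shade a gene. RXR and ERR sums are higher in both dabigatran libraries than in any diet library, and LXR sums overlap, with Nr1h2 at 16.0 and 14.6 FPKM with dabigatran.

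The xenobiotic sensors did not pass the test. Nr1i3 had 67.6 and 86.1 FPKM in dabigatran replicates 1 and 2, against 66.8, 57.5 and 65.7 FPKM in diet replicates 0, 1 and 2. The groups were apart by less than 1 FPKM at their closest (log2 difference 0.27 ± 0.18, SE, adjusted p = 0.512), and the difference was 0.0965 without dabigatran replicate 2 and 0.44 without dabigatran replicate 1. Exons of Nr1i3 overlap those of Tomm40l on the opposite strand over 74.9% of its annotated exonic bases, and 63.6% of its 50-base windows occur in another transcript. Tomm40l had 27.0 and 43.7 FPKM with dabigatran and 26.2, 18.7 and 28.4 FPKM on the diet alone, so both genes were highest in dabigatran replicate 2. Whether strand was used in counting is not given, which makes the level of Nr1i3 uncertain. Nr1i2 had 26.4 and 21.8 FPKM with dabigatran and 21.03, 23.9 and 20.1 FPKM on the diet alone, with overlapping groups.

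Among hormone and vitamin receptors, the thyroid hormone receptor gene Thrb, the main subtype of hepatocytes, had 5.32 and 3.62 FPKM in dabigatran replicates 1 and 2, against 6.88, 5.82 and 5.35 FPKM in diet replicates 0, 1 and 2. Dabigatran replicate 1 lay just under diet replicate 2, so the groups were only just apart. The log2 difference was -0.41 ± 0.25 (SE, 95% interval -0.98 to 0.17, adjusted p = 0.468) and was -0.16 without dabigatran replicate 2 and -0.66 without dabigatran replicate 1. Thra had 3.39 and 5.01 FPKM with dabigatran and 4.07, 3.05 and 5.81 FPKM on the diet alone. Its last exons overlap those of the clock receptor gene Nr1d1 on the opposite strand over 5.7% of its exonic bases. Retinoic acid receptors were low, led by Rara with 5.64 and 4.02 FPKM with dabigatran and 3.65, 3.61 and 6.39 FPKM on the diet alone. Rarb had 1.79 and 1.59 FPKM with dabigatran and 1.08, 1.41 and 2.39 FPKM on the diet alone, with 34.1% of its exonic bases shared with Top2b on the opposite strand. Rarg had 1.75 and 2.16 FPKM with dabigatran and 1.00, 3.07 and 2.25 FPKM on the diet alone. The groups overlapped for all 3 retinoic acid receptor genes and for Thra.

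Steroid receptors had overlapping levels, except Esr1. The estrogen receptor gene Esr1 had 4.81 and 6.21 FPKM in dabigatran replicates 1 and 2, against 3.65, 4.66 and 1.98 FPKM in diet replicates 0, 1 and 2. Dabigatran replicate 1 was just above diet replicate 1, and the log2 difference was 0.67 ± 0.34 (SE, 95% interval -0.12 to 1.45, adjusted p = 0.386). It was 0.37 without diet replicate 2. Nr3c1 had 15.4 and 11.1 FPKM with dabigatran and 17.3, 15.7 and 11.7 FPKM on the diet alone, on 205 and 133 fragments against 268, 186 and 176. Replicate 2 was the lowest library in both groups (log2 difference -0.16, 95% interval -0.72 to 0.39). Nr3c2 had 3.08 and 1.18 FPKM with dabigatran and 2.03, 2.14 and 2.31 FPKM on the diet alone, so the dabigatran libraries lay on either side of the diet range.

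Of the other tested orphan receptors, Nr6a1 was the one with groups apart. Nr6a1, a germ cell repressor, had 1.62 and 1.62 FPKM with dabigatran and 2.09, 2.10 and 1.80 FPKM on the diet alone (log2 difference -0.23 ± 0.28, SE, adjusted p = 0.730). Rora, which activates clock genes through the same element that Nr1d1 represses, had 10.3 and 8.54 FPKM with dabigatran and 6.87, 10.1 and 3.70 FPKM on the diet alone. Its diet replicate 1 lay between the dabigatran libraries, and the log2 difference of 0.52 was 0.16 without diet replicate 2 and 0.83 without diet replicate 1. Nr5a2 had 12.4 and 11.1 FPKM with dabigatran and 12.0, 16.0 and 13.1 FPKM on the diet alone. The COUP-TF genes Nr2f2 (7.38 and 6.26 FPKM with dabigatran; 7.38, 6.02 and 7.84 on the diet alone) and Nr2f6 (16.3 and 12.7 FPKM with dabigatran; 13.9, 10.8 and 17.5 on the diet alone) had overlapping groups, and Nr2f6 shares 54.4% of its exonic bases with Ocel1 on the opposite strand. Nr2c1 and Nr2c2, testis receptors that can bind the same direct repeats as RXR pairs, had 2.80 to 3.53 and 2.48 to 2.92 FPKM with dabigatran, against 2.93 to 4.72 and 1.65 to 3.00 FPKM on the diet alone, with 30.7% of the exonic bases of Nr2c2 shared with Mrps25.

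**Figure D3:**
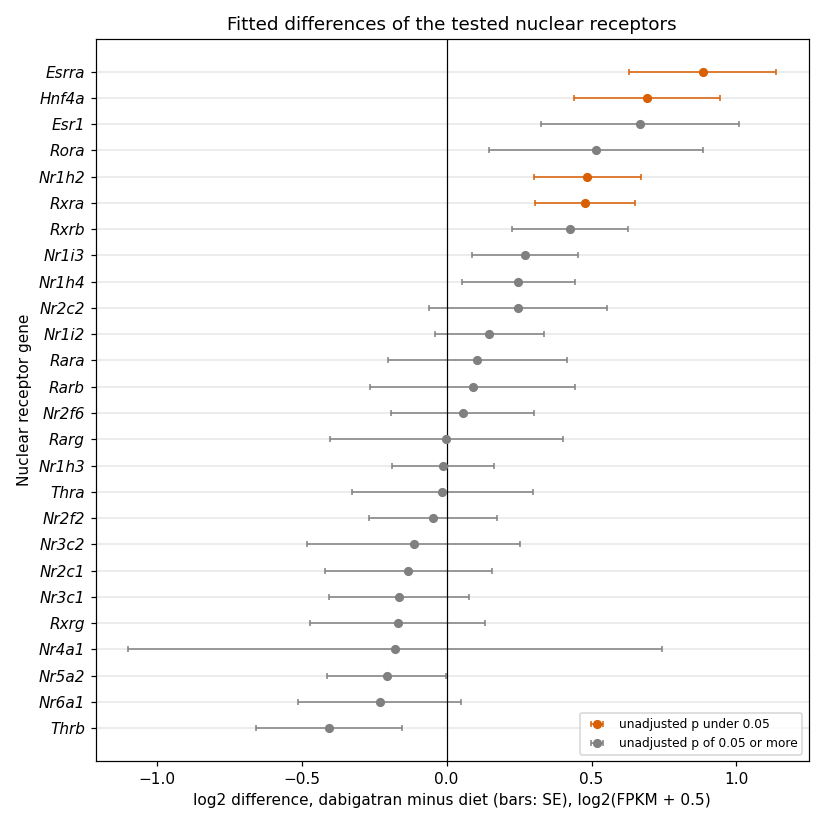
Fitted log2 difference (dabigatran minus diet) of the 26 tested receptors on the log2(FPKM + 0.5) scale, with bars of 1 SE. The 4 orange points, Esrra, Hnf4a, Nr1h2 and Rxra, have an unadjusted p under 0.05, and none passes after adjustment over 10247 genes.

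Set against the receptors that need it as a partner, RXR was higher with dabigatran. The summed FPKM of the 3 RXR genes was 39.4% and 42.6% of the summed FPKM of 12 listed partners (LXR, FXR, PXR, CAR, thyroid hormone, retinoic acid and vitamin D receptors and Ppard) in dabigatran replicates 1 and 2, against 32.5%, 36.5% and 32.7% in diet replicates 0, 1 and 2. With Ppara and Pparg among the partners it was 32.8% and 39.0% with dabigatran, against 25.1%, 28.0% and 26.1% on the diet alone. The groups did not overlap on either count. These are ratios of RNA levels chosen after the levels of Rxra and Rxrb were seen, and they carry no test. The sum of the 12 partners includes Nr1i3, at 66.8 of 203 FPKM in diet replicate 0. The level of Nr1i3 is uncertain because of its overlap with Tomm40l, and the part of this in the ratios was not tested.

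Of the 16 family genes outside the list, 7 were tested, and 1 passed lower and 0 higher, beside 0.303% and 0.127% of all tested genes. The median log2 difference of these 7 was -0.64, and it was -0.34 without dabigatran replicate 2. Pparg, the receptor of fat storage, had 1.12 and 1.55 FPKM in dabigatran replicates 1 and 2, against 7.95, 5.31 and 8.37 FPKM in diet replicates 0, 1 and 2, and was the gene that fell (log2 difference -2.06 ± 0.28, SE, adjusted p = 0.0404). Of the adipocyte markers summed above, Cfd was also lower, listed at 0 in both dabigatran libraries against 150, 28.3 and 47.5 FPKM on the diet alone. Cidec overlapped, at 23.1 and 23.3 FPKM with dabigatran and 42.3, 20.5 and 45.1 FPKM on the diet alone. The part of adipocytes in the Pparg result was not tested. The fatty acid receptor gene Ppara had 41.4 and 20.2 FPKM with dabigatran and 51.9, 50.2 and 43.8 FPKM on the diet alone, lower without overlap (adjusted p = 0.269). The heme-binding clock repressors Nr1d1 (13.3 and 16.3 FPKM with dabigatran; 26.3, 19.1 and 24.8 on the diet alone; adjusted p = 0.212) and Nr1d2 (15.05 and 13.5 FPKM with dabigatran; 19.04, 22.6 and 16.6 on the diet alone) were also lower without overlap. Nr0b2 (SHP), the bile acid-induced repressor, had 22.3 FPKM in dabigatran replicate 1 and 0.562 FPKM in replicate 2, against 14.8, 21.7 and 14.4 FPKM on the diet alone. The dabigatran libraries lay on either side of the diet range. Nr1h5 had 1.31 and 1.25 FPKM with dabigatran and 1.82, 2.39 and 1.33 FPKM on the diet alone. Below the filter, Esrrb was at most 0.346 FPKM. Rorb, Esr2, Pgr, Nr0b1, Nr2e1, Nr2e3 and Nr5a1 were listed at 0 in every library.

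Coregulators carry the receptors' signal to chromatin. Of 22 tested coactivators 0 passed in either direction, and 7 were higher and 0 lower without overlap, beside 17.2% in each direction over all tested genes. Their median log2 difference was 0.33, beside 0.02 over all tested genes, and was 0.19 without dabigatran replicate 2. Ncoa6 had 4.76 and 6.82 FPKM in dabigatran replicates 1 and 2, against 4.08, 2.53 and 2.75 FPKM in diet replicates 0, 1 and 2 (adjusted p = 0.238). Ncoa2, a p160 coactivator, had 7.195 and 9.14 FPKM with dabigatran and 6.20, 5.49 and 5.96 FPKM on the diet alone, and the chromatin remodelling subunit gene Arid1a 5.71 and 6.47 FPKM with dabigatran and 4.85, 4.10 and 4.40 FPKM on the diet alone. Of 15 tested corepressors 0 passed, with a median of 0.02. Trim24, a cofactor of retinoic acid receptors, had 8.29 and 17.7 FPKM with dabigatran and 5.36, 5.28 and 5.33 FPKM on the diet alone (adjusted p = 0.145). Gps2, a subunit of a corepressor complex, had 5.46 and 6.06 FPKM with dabigatran and 8.98, 6.15 and 10.9 FPKM on the diet alone.

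Genes that supply, carry or activate ligands had a median log2 difference of -0.57 over 16 tested genes, of which 1 passed lower and 0 higher, beside 0.303% and 0.127% of all tested genes. In this list 11 genes were lower and 4 higher without overlap, beside 17.2% in each direction over all tested genes. Serpina6, the corticosteroid-binding globulin of plasma, fell to 13.6 and 6.11 FPKM in dabigatran replicates 1 and 2, against 58.2, 33.5 and 55.7 FPKM in diet replicates 0, 1 and 2 (adjusted p = 0.0464). The retinol-oxidising enzyme gene Adh1 had 392 and 272 FPKM with dabigatran and 788, 558 and 908 FPKM on the diet alone (adjusted p = 0.0902).

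Among lists of known target genes, those of the glucocorticoid receptor had the highest median log2 difference, 1.71 over 13 tested genes. Nr3c1 itself was at -0.16. In the list of glucocorticoid receptor targets 1 gene passed higher and 0 lower, beside 0.127% and 0.303% of all tested genes. Without overlap 8 were higher, beside 17.2% of all tested genes. The lists were chosen with earlier results of these data known. The metallothionein gene Mt1 rose to 398 and 876 FPKM with dabigatran, against 107, 136 and 140.0 FPKM on the diet alone (adjusted p = 0.0404). Mt2 had 417 and 808 FPKM with dabigatran and 108, 225 and 133 FPKM on the diet alone, and the clock gene Per1 6.63 and 9.90 FPKM with dabigatran and 0.444, 2.45 and 0.643 FPKM on the diet alone. In the list median diet replicate 1 lay toward the dabigatran libraries, at 0.85 above the diet mean. The list median was -0.58 and -0.18 in diet replicates 0 and 2 and 1.32 and 2.14 in dabigatran replicates 1 and 2. Mt1 did not show this, with 136 FPKM in diet replicate 1 and 140.0 FPKM in diet replicate 2.

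Thyroid hormone receptor targets had a median of -0.65 over 6 tested genes, with 0 passing, and of -0.40 without diet replicate 0. Me1 (malic enzyme) had 17.96 and 11.2 FPKM with dabigatran and 52.4, 28.4 and 55.1 FPKM on the diet alone. Dio1, which converts thyroxine to its active form, had 79.7 and 36.9 FPKM with dabigatran and 115, 109.7 and 117 FPKM on the diet alone (adjusted p = 0.148). Gpd2 had 4.59 and 5.19 FPKM with dabigatran and 9.47, 7.18 and 7.69 FPKM on the diet alone. These 3 genes were lower without overlap and 0 were higher, beside 17.2% in each direction over all tested genes. The other tested genes of the list overlapped, and of these Klf9 (log2 difference 0.24) and Bcl3 (0.33) had positive differences.

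CAR and PXR targets had a median of -0.43 over 17 tested genes, with 1 passing higher and 0 lower, beside 0.127% and 0.303% of all tested genes. The transporter gene Slco1a4 rose to 15.4 and 17.8 FPKM with dabigatran, against 6.11, 5.16 and 4.40 FPKM on the diet alone (adjusted p = 0.0404). In this list 8 genes were lower and 3 higher without overlap, beside 17.2% in each direction over all tested genes. Por, the reductase that supplies electrons to cytochromes P450, had 145 and 293 FPKM with dabigatran and 71.4, 74.9 and 70.8 FPKM on the diet alone (adjusted p = 0.0674). The exporter gene Abcc3 had 15.3 and 16.8 FPKM with dabigatran and 64.7, 32.4 and 70.7 FPKM on the diet alone (adjusted p = 0.0714).

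LXR targets had a median of -0.34 over 11 tested genes and FXR targets of -0.20 over 8, with 0 passing in either list. The FXR median was -0.36 without dabigatran replicate 1 and -0.0267 without dabigatran replicate 2. The sterol exporter genes Abcg5 (31.1 and 21.6 FPKM with dabigatran; 59.9, 59.3 and 57.8 on the diet alone; adjusted p = 0.0639) and Abcg8 (16.3 and 14.4 FPKM with dabigatran; 24.4, 28.2 and 25.7 on the diet alone) were lower without overlap, and so was the desaturase gene Scd1, at 601 and 139 FPKM with dabigatran and 5185, 1432 and 3633 FPKM on the diet alone. Of FXR targets, Fetub had 201 and 260 FPKM with dabigatran and 136, 171 and 146 FPKM on the diet alone, while the lipase cofactor gene Apoc2 had 372 and 324 FPKM with dabigatran and 602, 397 and 645 FPKM on the diet alone. The bile acid conjugating enzyme gene Baat had 157 and 182 FPKM with dabigatran and 117, 132 and 120.0 FPKM on the diet alone. HNF4A targets had a median of 0.20 over 12 tested genes, 0.0977 without dabigatran replicate 2, with 0 passing. Among them the urea cycle gene Otc (111 and 139.6 FPKM with dabigatran; 209.7, 228 and 189.7 on the diet alone) and the bile acid 12-alpha-hydroxylase gene Cyp8b1 (415 and 513 FPKM with dabigatran; 225, 325 and 209 on the diet alone) were apart in opposite directions. The carrier gene Apom had 183 and 172 FPKM with dabigatran and 62.5, 134 and 84.0 FPKM on the diet alone.

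ERR targets had a median of 0.0582 over 9 tested genes, between -0.0370 without diet replicate 1 and 0.14 without dabigatran replicate 1. Of these genes 0 passed, and 1 was higher and 2 lower without overlap, beside 17.2% in each direction over all tested genes. The citric acid cycle gene Idh3a had 17.0 and 25.4 FPKM with dabigatran and 12.0, 11.8 and 13.0 FPKM on the diet alone. The fatty acid oxidation gene Acadm had 178 and 209 FPKM with dabigatran and 266, 233 and 284 FPKM on the diet alone, and the respiratory chain gene Ndufa4 667 and 717 FPKM with dabigatran and 772, 861 and 751 FPKM on the diet alone.

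The remaining lists had medians of -0.19 for PPAR delta and PPAR alpha shared targets (9 tested), -0.19 for retinoic acid receptor targets (5 tested) and 0.0295 for immediate early genes (9 tested), with 0 passing in each. They moved when 1 library was left out. The PPAR median was -0.0552 without diet replicate 2 and -0.0695 without dabigatran replicate 1, the retinoic acid receptor median 0.0714 without diet replicate 1 and -0.38 without diet replicate 0, and the immediate early median -0.62 without dabigatran replicate 1 and -0.24 without diet replicate 0. Angptl4 had 55.7 and 86.2 FPKM with dabigatran and 31.4, 39.5 and 34.9 FPKM on the diet alone, opposite in direction to the lipid droplet gene Plin2 at 323 and 210 FPKM with dabigatran and 474, 420 and 479 FPKM on the diet alone. Slc25a20, the carnitine carrier of mitochondria, had 81.5 and 82.4 FPKM with dabigatran and 93.7, 95.1 and 104 FPKM on the diet alone. The retinal reductase gene Dhrs3 had 62.9 and 30.9 FPKM with dabigatran and 80.5, 61.8 and 85.9 FPKM on the diet alone, and the retinoic acid hydroxylase gene Cyp26b1 3.28 and 3.41 FPKM with dabigatran and 2.02, 1.27 and 2.54 FPKM on the diet alone. Tgm2 had 23.0 and 20.5 FPKM with dabigatran and 36.2, 21.1 and 38.3 FPKM on the diet alone, with overlapping groups. The stress gene Atf3 had 0.781 and 0.289 FPKM with dabigatran and 1.12, 1.76 and 2.54 FPKM on the diet alone. Junb had 5.08 and 3.44 FPKM with dabigatran and 4.59, 10.5 and 10.5 FPKM on the diet alone, and Ier2 had 8.76 and 8.17 FPKM with dabigatran and 5.11, 7.499 and 7.46 FPKM on the diet alone. Medians of lists with few tested genes rest on those few genes, and lists share members.

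**Figure D4:**
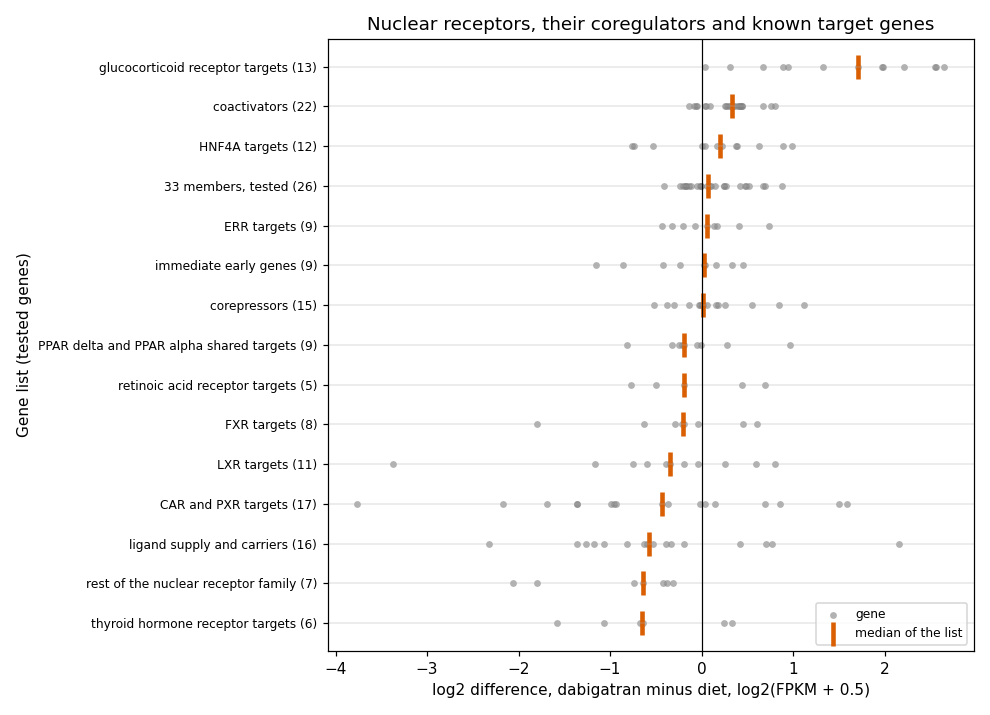
Log2 difference (dabigatran minus diet) of each tested gene (grey) and the median of its list (orange bar) for the nuclear receptors, their coregulators, ligand supply genes and known targets, with the number of tested genes in brackets. The 26 receptors lie within about 1 log2 unit around a median of 0.07, while the list medians run from -0.65 to 1.71.

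Upstream sequence is shown for the 4 members with the lowest p, all higher with dabigatran, so that their promoters can be compared. Each sequence is the 250 bases before a RefSeq start site (GRCm38.p6), 5′ to 3′ on the gene's strand. Capitals mark matches, on either strand, to the receptor hexamer AGGTCA, the E-box CACGTG, the GC box GGGCGG, the CCAAT box, the TATA box TATAAA and the HNF1 element ATTAAC. Esrra is chr19:6921809-6922058 (minus strand), Hnf4a is chr2:163546905-163547154 (plus strand, the downstream of 2 start sites), Nr1h2 is chr7:44553966-44554215 (minus strand) and Rxra is chr2:27676951-27677200 (plus strand, the upstream of 2 start sites).
Esrra: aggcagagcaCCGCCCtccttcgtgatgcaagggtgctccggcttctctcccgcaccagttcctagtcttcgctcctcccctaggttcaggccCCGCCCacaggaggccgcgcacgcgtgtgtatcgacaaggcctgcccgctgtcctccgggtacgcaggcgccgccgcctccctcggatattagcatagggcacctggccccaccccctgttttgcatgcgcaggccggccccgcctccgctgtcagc
Hnf4a: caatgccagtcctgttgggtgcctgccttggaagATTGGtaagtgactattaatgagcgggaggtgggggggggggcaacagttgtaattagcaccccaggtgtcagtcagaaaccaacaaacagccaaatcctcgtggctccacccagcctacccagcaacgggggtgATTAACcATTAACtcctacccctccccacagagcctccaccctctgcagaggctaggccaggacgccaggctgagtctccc
Nr1h2: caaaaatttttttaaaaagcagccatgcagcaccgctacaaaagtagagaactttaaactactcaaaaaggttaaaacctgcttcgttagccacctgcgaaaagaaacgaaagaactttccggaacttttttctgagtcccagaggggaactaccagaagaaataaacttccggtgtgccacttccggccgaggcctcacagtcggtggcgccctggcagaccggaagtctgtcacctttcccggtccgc
Rxra: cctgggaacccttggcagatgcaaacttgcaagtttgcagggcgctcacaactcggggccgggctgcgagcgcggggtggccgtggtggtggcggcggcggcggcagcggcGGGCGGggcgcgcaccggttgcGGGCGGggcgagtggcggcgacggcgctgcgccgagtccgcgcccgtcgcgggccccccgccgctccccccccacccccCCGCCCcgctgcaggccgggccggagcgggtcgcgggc
The windows differed in base composition, with 68.4% G and C for Esrra, 57.6% for Hnf4a, 48.4% for Nr1h2 and 81.2% for Rxra. Rxra held 3 and Esrra 2 matches to the GC box GGGCGG, which was found in 44.7% of the 47 member windows and in 32.7% of 32851 windows of all genes. Hnf4a held 2 matches to ATTAAC, one arm of the palindrome bound by HNF1, which was found in 10.6% of member windows and in 6.4% of all windows. The receptor hexamer AGGTCA was in none of these 4 windows, but the window of the downstream start site of Rxra held 2 matches, and it was found in 14.9% of member windows, beside 14.0% of all windows, and the longer ERR element TCAAGGTCA, which contains it, was in 0 member windows and 0.4% of all windows. The E-box was in 6.4% of member windows and 6.0% of all windows, the CCAAT box in 29.8% of member windows and 33.8% of all windows, and the TATA box in 8.5% of member windows and 12.4% of all windows. RefSeq windows matched 30 of the 33 members by symbol, and a match is a description of letters only.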

How the data were processed

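The values used are the FPKM of each gene in 6 tables, 3 from diet samples and 3 from dabigatran samples, as deposited and as named per the file headers. Libraries came from total liver RNA with a TruSeq kit, per the labels' protocols. The submitters' processing notes name the builds mm10 and GRCm38 and the tools TopHat and TopHat2 (2.0.4), CASAVA, Cuffdiff, and R (2.15.1), without roles. The sources used here do not give the annotation, the use of strand, the treatment of multiple matches or the scaling across libraries. FPKM depends on all other genes of a library, so a few abundant genes can shift the rest.

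Identical tables were merged. Filtering kept 10247 genes, and limma 3.58.1 (under R 4.3.3, group as the sole term, eBayes moderation that follows the mean-variance trend) was run on log2(FPKM + 0.5). Tests were two-sided. Adjusted p-values follow Benjamini and Hochberg over all tested genes, with 0.05 as threshold. Fold changes on that scale are understated for low genes. An SD refers to FPKM and an SE to log2 differences. The design text speaks of mice but does not tie each sample to an animal, so p-values measure the spread between these libraries. The fit was tested on simulated data.

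Relative depth is the commonest ratio of values under 0.3 FPKM. A gene's whole fragments are the lowest set of integers that matches its depth-scaled values to a relative tolerance of 2e-05, accepted where fewer than 0.001 such sets were expected by chance, as for 8099 tested genes (79.0%). For some genes the integers are large for the level, so they may not be true counts. In dabigatran replicate 1 Med14 had 455 at 2.86 FPKM, and Ncoa3 had 67 at 4.21 FPKM. The fit with voom took all of them as counts.

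Positions, exon overlaps and 50-base windows come from GENCODE M21 (GRCm38) and may differ from the annotation behind the deposited values. Members and lists were chosen with earlier results of these data known. All 33 members are named. The rule also names the other 16 family genes and, from every other list, the 3 tested genes with the lowest p, of which some are not reported here. Alternatives were other pseudocounts, filters and scalings, no variance trend, voom on fragments, a replicate block and leaving out each library.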

Additional observations from a re-analysis of the deposited data

How the results depend on the processing

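Of 16 alternatives, 1 let a receptor pass, Hnf4a at an adjusted p of 0.0466 (log2 difference 0.78), and its next lowest was 0.0525 without dabigatran replicate 1. Of the 26 receptors, 14 kept their sign in every alternative in which they were fitted and 12 did not. Their median difference, 0.07, ranged from -0.01 to 0.25. At an unadjusted p under 0.05 the receptors numbered 4 higher and 0 lower, with 1 lower without a filter and 1 to 5 higher when 1 library was left out. Over all genes 13 passed higher and 31 lower. With a pseudocount of 0.1 these counts were 6 and 17. They were 0 and 0 without a filter (816 higher and 1117 lower at an unadjusted p under 0.05) and without a variance trend (692 and 870). Requiring 5 FPKM left 8 higher, quantile normalization 16 lower, and voom on fragments 12 higher and 9 lower, where limma on the same 8099 genes, an alternative chosen after seeing the data, gave 13 and 25. Leaving out 1 library gave 0 to 95 higher and 0 to 199 lower. Mt1 passed in 9 of 16 alternatives, Slco1a4 in 10 of 16, Serpina6 in 6 of 16 and Pparg in 8 of 14. The causes were not tested.

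Replicate numbers 1 and 2 occur in both groups, but no label says that they pair animals, and deviations from the group means correlated at -0.0448 for number 1 and -0.0255 for number 2. With the replicate block 5 genes passed higher and 8 lower, and 1 receptor was higher and 1 lower at an unadjusted p under 0.05, beside 4.34% and 6.63% of all genes. Rara (-0.0137) and Rarb (-0.10) changed sign under the block, in which diet replicate 0 has no partner. The table shared by dabigatran replicates 0 and 1 may belong to number 0, whose deviations correlated at 0.0325. With 2 dabigatran libraries the deviations of one mirror those of the other, so these correlations cannot decide pairing or numbering. With a replicate block so numbered, chosen after seeing the data, 251 genes passed higher and 414 lower, with 1 receptor higher, the Hnf4a call above. Rara (-0.0204), Rarg (0.27), Nr2c1 (0.0619), Nr2f6 (-0.11) and Nr4a1 (0.74) then changed sign.

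Rarg changed sign to 0.0221 with a pseudocount of 0.1, 0.0273 after quantile normalization and 0.0777 with voom, Nr1h3 to 0.0403 after quantile normalization and Nr4a1 to 0.17 with voom. When 1 library was left out, the log2 difference ranged from -0.0844 to 0.0720 for Nr1h3, -0.28 to 0.0619 for Nr2c1, -0.16 to 0.0644 for Nr2f2, -0.12 to 0.23 for Nr2f6, -0.39 to 0.0631 for Nr3c1, -0.66 to 0.43 for Nr3c2, -1.08 to 0.74 for Nr4a1, -0.11 to 0.35 for Rara, -0.10 to 0.33 for Rarb, -0.35 to 0.27 for Rarg, -0.42 to 0.0841 for Rxrg and -0.27 to 0.24 for Thra. Without a change of sign, Nr1i2 ranged from 0.0121 to 0.28, Nr2c2 from 0.0868 to 0.44 and Nr5a2 from -0.29 to -0.0934. A lone dabigatran library was assumed to vary like the diet libraries. Depth limits the receptors with under 10 fragments per library.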
